A study of Homo sapiens with 21 samples.

Results

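The genes described here code for the subunits, activators, inhibitor and assembly chaperones of the proteasome, the protease that degrades ubiquitin-tagged proteins. A gene was taken when its symbol was PSM, a letter from A to G and a number. PSMB8 and PSMB9, the catalytic subunits that interferon induces, were left out. Of 46 such symbols in RefSeq, 42 had a probe set annotated to that gene alone and are described here, among 18132 genes measured in all. The other 4 were not analysed here. Where a gene had several probe sets, as 30 of the 42 did, the brightest on average over the 21 arrays was used, a choice that looked at no difference between groups. The set was named constitutive, a name that several members go against. PSMB10 is the third catalytic subunit of the immunoproteasome, PSMB11 belongs to the proteasome of the thymic cortex, and PSMA8 to that of the testis. The activator genes PSME1 and PSME2 are raised by interferon, as PSMB10 is.

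All samples were SH-SY5Y cells, a human neuroblastoma line, differentiated in retinoic acid (10 µM) and the neuronal growth factor BDNF (50 ng/mL) over 3 to 4 days. Cells were wild type (WT) or mutated in APP, the gene of the amyloid precursor protein (APP-V717F, written APP below), and were then treated for 72 h. WT cells received the DMSO vehicle at 0.1% (WT_DMSO), AG494 (WT_AG494), NOSCA (WT_NOSCA) or PALBO (WT_PALBO). APP cells received vehicle (APP_DMSO), AG494 (APP_AG494) or NOSCA (APP_NOSCA). Each group had 3 arrays. AG494 is known as an inhibitor of the EGF receptor kinase; the other compounds are given by the names in the labels. The labels state neither doses nor whether the mutated cells were 1 clone, so that the compounds are set side by side and not compared with each other. Every group, controls included, had been differentiated and had received DMSO as the solvent.

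The proteasome core is a barrel of 4 stacked rings, an outer pair of α subunits that form the gate and an inner pair of β subunits, of which PSMB5, PSMB6 and PSMB7 carry the active sites. The 19S cap on the barrel has a base of ATPases (PSMC genes) that unfold and feed in the substrate, and a lid with the enzyme that removes ubiquitin. Other caps can open the gate: PA28αβ (PSME1 and PSME2), PA28γ (PSME3) and PA200 (PSME4). Interferon raises PSMB8, PSMB9, PSMB10, PSME1 and PSME2, which changes the peptides that reach MHC class I molecules. Subunits are needed in fixed proportions, and cells are known to raise many of them together through the transcription factor NRF1 (gene NFE2L1) when the proteasome is inhibited. Neurons depend on this system to remove misfolded proteins.

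The values were log2 intensities from Affymetrix PrimeView arrays, which ran from 4.143 to 14.37, with array medians between 7.877 and 8.03. Such values carry no count, and the 3 arrays per group limit the precision. Of 12 listed markers of noradrenergic neuroblasts 10 were measured. DBH ran from 12.90 to 13.35 and HAND2 from 12.61 to 12.84 on all arrays, with TH lower, from 7.04 to 9.61. The list summed to between 15.67 and 15.71 on the log2 scale in WT_DMSO and to between 15.71 and 15.77 in APP_DMSO. Its genes differed by -0.85 to 0.63 in APP_DMSO from WT_DMSO, with 2 called higher and 2 lower. Under PALBO in WT cells 3 were called higher and 0 lower. The immune marker list (7 of 8 measured) summed to between 8.97 and 9.25 on the log2 scale in the other 6 groups and to between 9.27 and 9.42 in APP_AG494. Its defining gene PTPRC stayed between 4.79 and 5.18 on all arrays, a low level on these arrays. The fibroblast list (5 of 5 measured) summed to between 11.27 and 11.42 in APP_DMSO and to between 11.75 and 12.12 in WT_DMSO, with 1 gene called higher (DCN, 1.55) and 2 lower (COL1A1, -1.19, and PDGFRA, -0.82). The glial list (5 of 7 measured) summed to between 9.38 and 9.60 in APP_DMSO and to between 9.71 and 9.80 in WT_DMSO, with S100B called lower (-1.01). The part of these markers in the genotype comparisons was not tested. APP itself had group means from 12.49 to 12.57 in the WT groups and from 12.29 to 12.45 in the APP groups, and the probe sets do not read the mutation. In RNA from whole cultures, fewer cells of a type and less RNA per cell cannot be told apart.

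By their brightest probe sets, proteasome genes were bright and nearly level across the 7 groups. Of the 42 members, 40 had mean values between 10.05 and 13.90, and PSMA8 and PSMB11 lay at 5.01 and 4.87 on average. The distance between the highest and the lowest of the 7 group means had a median of 0.13 over the members and of 0.25 over all genes. It exceeded 0.2 in 7 of 42 members (16.7%) and in 66.3% of all genes. The median SD between arrays of a group was 0.071 for members and 0.13 for all genes. Bright probe sets vary less on such arrays, and part of this gap goes with brightness. Among genes with a mean from 12 to 13, the distance had a median of 0.10 over 22 members and of 0.16 over 998 genes, and 19 of the 22 members lay below the latter. Among genes with a mean from 11 to 12 it was 0.15 over 11 members and 0.23 over 1951 genes, with 10 of the 11 below. Among the 5 members with a mean from 10 to 11 it was 0.28, beside 0.27 over 2493 genes. In that last range the median SD between arrays of a group was 0.079 for members and 0.12 for all genes.

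**Figure D1:**
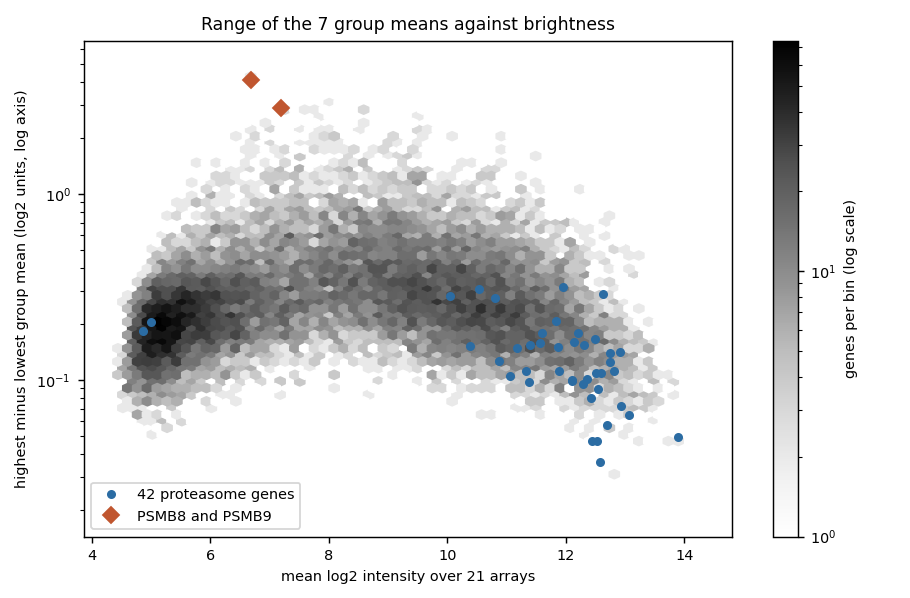
Each point is a gene; the x axis gives its mean log2 intensity over 21 arrays and the y axis, on a log scale, the distance between its highest and lowest group mean in log2 units. Grey bins hold all 18132 genes, blue points are the 42 proteasome genes and red diamonds PSMB8 and PSMB9; most blue points above a mean of 11 lie in the lower part of the grey cloud, and both diamonds lie near its top.

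The gate-forming α subunits (7 of 8 measured) showed group means within 0.095 to 0.20 of each other. PSMA5 was the steadiest of them and PSMA8, which lay near the floor, the most variable. PSMA7 was the brightest, between 12.80 and 13.02 over all arrays. PSMA4 had the largest fall in WT cells under AG494, from 12.82, 12.83 and 12.85 under vehicle to 12.78, 12.58 and 12.72. The groups did not overlap, as in 11.3% of all genes, and the difference of -0.14 (SE 0.078) did not pass the test (limma, adjusted p = 0.73). APP_DMSO was at 12.77, 12.63 and 12.83.

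By their brightest probe sets, most β subunits of the standard core varied little. PSMB4, a structural β subunit, stayed between 13.86 and 13.93 on all 21 arrays, and its group means spanned 0.049. PSMB7, the trypsin-like catalytic subunit, spanned 0.047 and PSMB6, the caspase-like one, 0.065. PSMB5, the chymotrypsin-like subunit that is the main target of proteasome inhibitor drugs, spanned 0.16, the most of the 7 β genes. In the specialised β genes, PSMB11 stayed between 4.66 and 5.15 with groups that overlapped, and PSMB10 is taken up below.

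The probe sets of PSMB7 disagreed between the genotypes. Its 3 bright ones, with means of 12.44, 11.96 and 11.94, differed by 0.030, 0.025 and 0.039 between APP_DMSO and WT_DMSO. Its 2 dim ones were lower in APP cells. The first, with a mean of 6.74, read 7.38, 7.12 and 7.23 in WT_DMSO and 6.02, 6.34 and 6.32 in APP_DMSO, and the second, with a mean of 6.90, read 7.36, 6.88 and 7.34 against 6.45, 6.68 and 6.61. The groups did not overlap in either, as in 22.1% of all genes by their brightest probe sets. The differences were -1.02 (SE 0.14) and -0.62 (SE 0.18), and both passed when limma tested all 44988 probe sets (adjusted p = 9e-05 and 0.042), beside 8.13% of these called. Under AG494 they were -0.90 and -0.62, and both passed (adjusted p = 0.00034 and 0.043, beside 7.76%). Under NOSCA they were -0.84, which passed (adjusted p = 0.00088, beside 6.08%), and -0.56, which did not (adjusted p = 0.086). The bright ones stayed between -0.025 and 0.040 in these 2 comparisons. When probe sets were averaged per gene, PSMB7 was called lower in APP cells in all 3 genotype comparisons. Which transcripts the dim probe sets read was not determined.

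In the 19S cap the median span was 0.13 over the ATPases and 0.13 over the lid, beside 0.072 over the standard β subunits. Among the ATPases (5 of 6 measured) PSMC1 spanned 0.047 and PSMC4 0.15, and no mean difference between compared groups exceeded 0.12. The ubiquitin receptor PSMD4 and the scaffold subunits PSMD1 and PSMD2 spanned 0.089, 0.11 and 0.080. In the lid (6 of 8 measured) PSMD8 had the smallest span of all 42 members, 0.036, with every array between 12.54 and 12.65. PSMD14, the enzyme that cuts ubiquitin off the substrate, spanned 0.057. PSMD3, a lid subunit, stood apart on 1 array: APP_DMSO gave 12.45, 12.61 and 12.17, and the other 20 arrays ranged from 12.33 to 12.64.

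**Figure D2:**
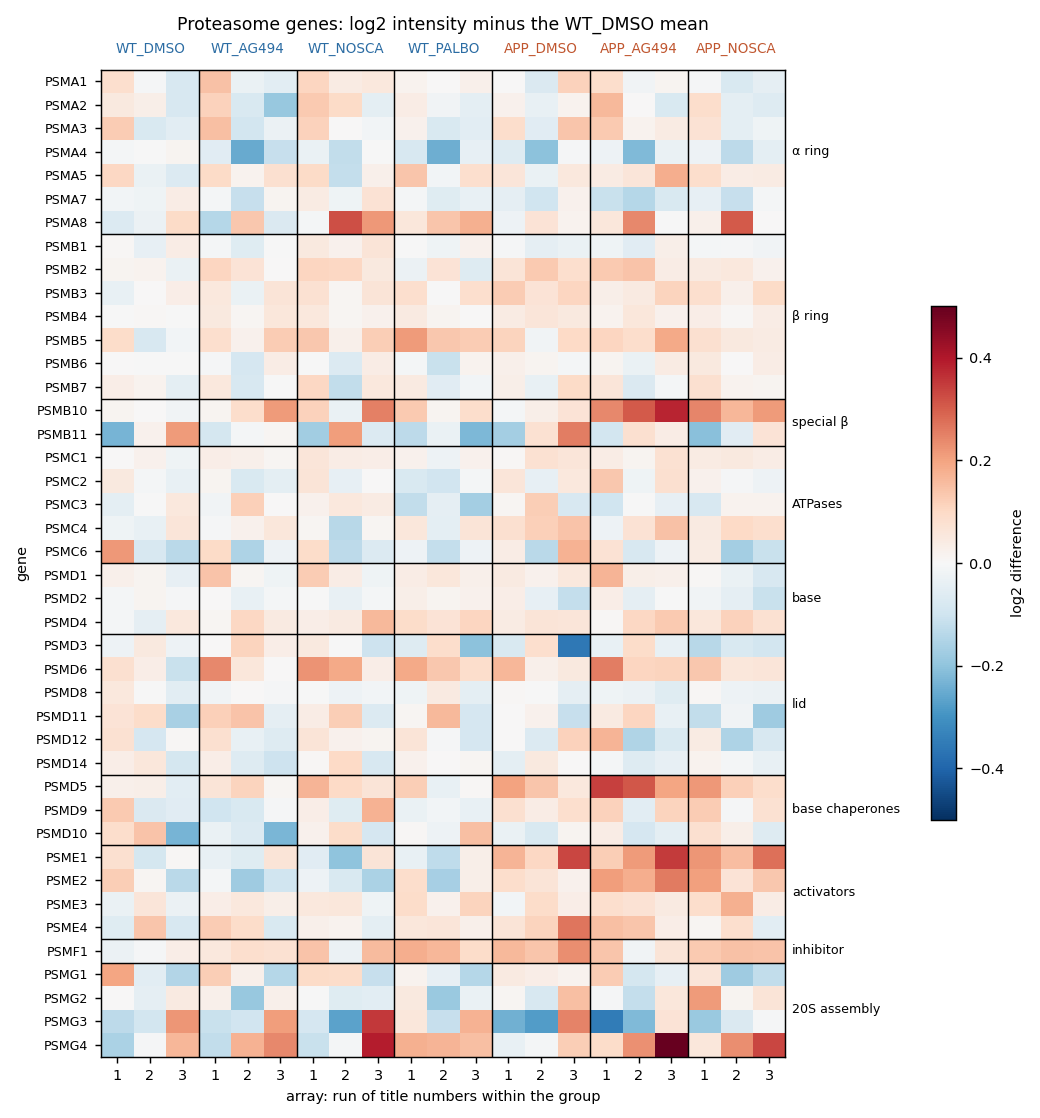
Each cell is 1 array (columns, 3 per group, numbered by the run of title numbers) and 1 gene (rows, ordered by role), coloured by its log2 intensity minus the WT_DMSO mean of that gene, from blue (lower) to red (higher). Rows of the β ring and the ATPases are mostly pale, with more colour on single arrays, as in PSMB5 and PSMC6. The deepest red lies in PSMG4, on the third array of APP_AG494 (0.51) and of WT_NOSCA (0.39), and in PSMB10 on the third array of APP_AG494 (0.38).

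Between APP and WT cells under vehicle, no member passed limma's test at an adjusted p under 0.05, beside 9.25% of all 18132 genes. At an unadjusted p under 0.05 there were 2 members, PSMF1 and PSME1, beside 20.3% of all genes. The arrays of 1 run of 10 title numbers varied together, and with that run as a block 2 members passed, again PSME1 and PSMF1, beside 17.4%. The median difference over the members was 0.028, and over all genes 0.022. There were 33 members above 0 and 9 below as deposited, but 13 above and 29 below when array medians were set equal, so that the sign of these small shifts turned with the scaling. The 95% interval of the difference stayed within 1.5-fold for all 42 members, as it did for 86.1% of all genes. It stayed within 1.2-fold for 34 members and 26.8% of all genes. These shares were not matched for brightness, and bright probe sets vary less on such arrays. The arrays of the 2 groups were apart in 7 members, all higher in APP_DMSO, and in 22.1% of all genes.

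Under AG494, PSME2 and PSMD5 were higher in APP than in WT cells, 2 of 42 members beside 9.02% of all genes called. With the replicate block PSMB10 and PSME1 joined them, 4 members beside 16.9%, and the same count had an unadjusted p under 0.05, beside 19.5%. Under NOSCA no member passed limma's test, beside 7.2% of all genes. With the block PSME1 and PSME2 passed, 2 members beside 14.8%, and 2 had an unadjusted p under 0.05, beside 18.5%. By the brightest probe set of each gene, the members called between the genotypes were all higher in APP cells; the dim probe sets of PSMB7 were lower. The shares of members called lay below those of all genes, which were not matched to the members for brightness. Intervals stayed within 1.5-fold for all 42 members under each compound. Under AG494 the arrays of the genotypes were apart in 4 members higher and 1 lower in APP cells, beside 23.4% of all genes. Under NOSCA they were apart in 4 members higher and 3 lower, beside 23.6%.

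**Figure D3:**
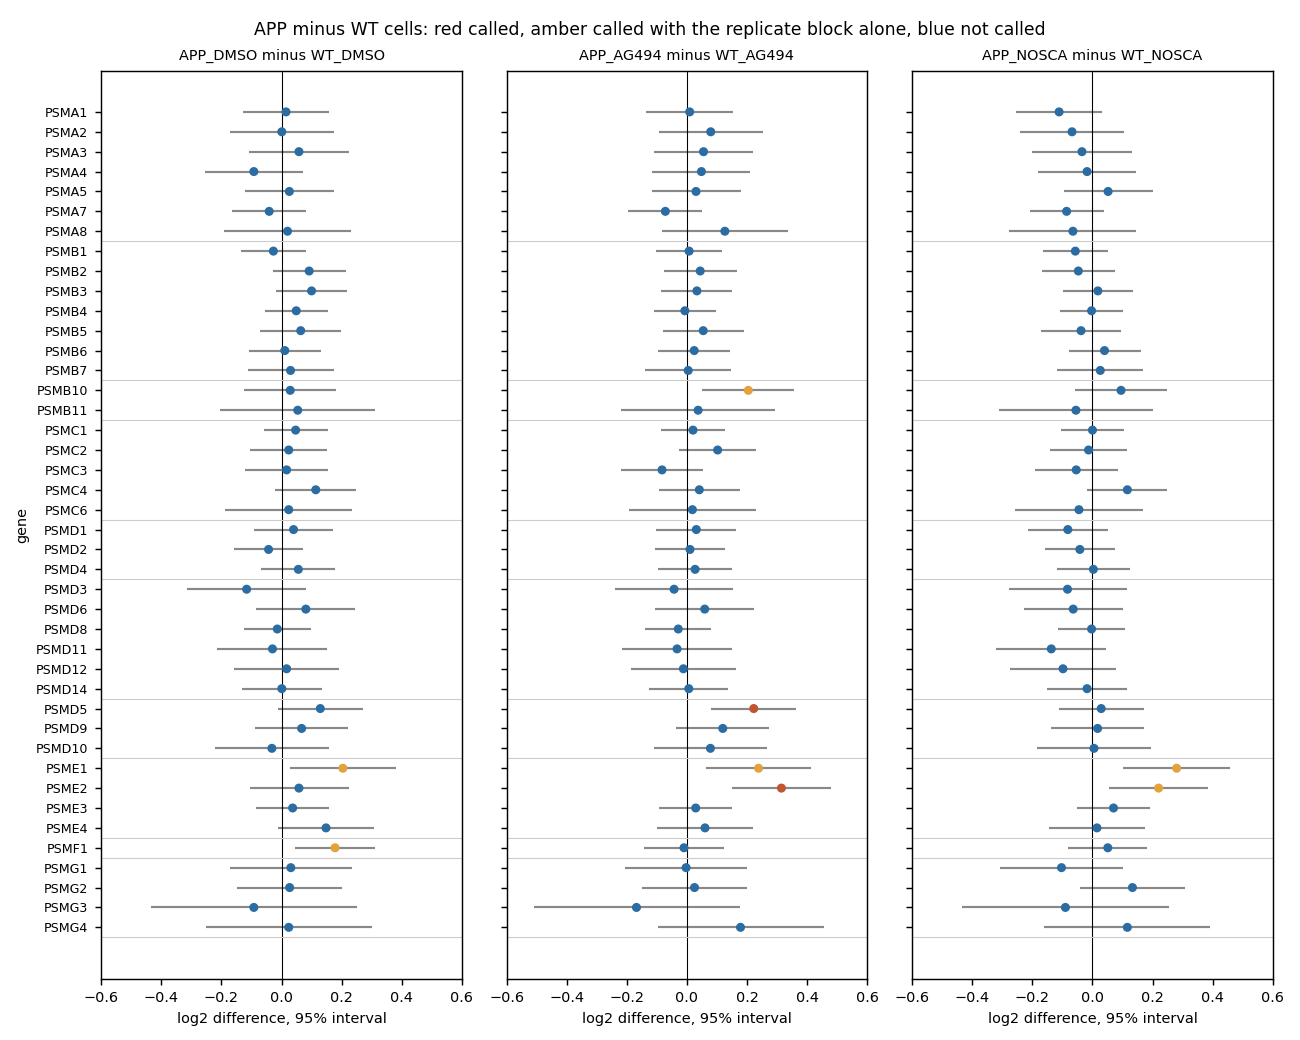
Points give the log2 difference of APP minus WT cells for each proteasome gene under vehicle (left), AG494 (middle) and NOSCA (right), with 95% intervals from the limma fit; n = 3 arrays per group. Red points passed at an adjusted p under 0.05, amber points passed with the replicate block alone and blue points did not pass; PSME1 and PSME2 lie to the right of 0 in all panels, and most other points lie near it.

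PSME1, the α chain of the PA28 cap, showed the most even separation of the genotypes. Under vehicle its WT arrays read 12.64, 12.47 and 12.56, and its APP arrays 12.73, 12.66 and 12.89. Under AG494 the WT arrays read 12.52, 12.49 and 12.62, and the APP arrays 12.68, 12.77 and 12.90. Under NOSCA they were 12.50, 12.36 and 12.62 in WT and 12.78, 12.71 and 12.83 in APP cells. WT_PALBO read 12.52, 12.43 and 12.58. All 9 APP arrays lay above all 12 WT arrays, and the share of all genes with such a separation was not computed. In the single genotype comparisons, of 3 against 3 arrays, groups were apart in 22.1% to 23.6% of all genes. The difference of APP from WT was 0.20 (SE 0.084) under vehicle, 0.24 under AG494 and 0.28 under NOSCA, or 1.15-, 1.18- and 1.21-fold. None passed limma's test without the block (adjusted p = 0.16, 0.093 and 0.051), and all passed with it (adjusted p = 0.019, 0.0071 and 0.0026). Leaving out WT_NOSCA replicate 3 gave 0.34 under NOSCA, which passed. The gene has 3 probe sets, and under vehicle the brightest gave 0.20, the next 0.28 and the dimmest, with a mean of 10.93, 0.35, so that the chosen probe set gave the smallest of the 3. When limma tested every probe set, the dimmest passed under vehicle (adjusted p = 0.0052), under AG494 (0.39, adjusted p = 0.0019) and under NOSCA (0.31, adjusted p = 0.013), and the middle one under AG494 (0.30, adjusted p = 0.043).

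PSME2 codes for the β chain of the same cap and is read by 1 probe set. Under AG494 its WT arrays were at 11.91, 11.74 and 11.83 and its APP arrays at 12.13, 12.11 and 12.19. The groups did not overlap, and the difference of 0.31 (SE 0.078), or 1.24-fold, passed limma's test (adjusted p = 0.014). Without WT_AG494 replicate 2 it was 0.27 and without APP_AG494 replicate 3 it was 0.29, and neither passed; adjusted p-values over the alternatives ran from 0.0021 to 0.076. Under NOSCA WT arrays were at 11.90, 11.85 and 11.77 and APP arrays at 12.13, 11.99 and 12.06, also apart, with a difference of 0.22 (adjusted p = 0.11, and 0.027 with the block). Under vehicle the WT arrays, at 12.05, 11.94 and 11.79, overlapped those of APP cells, at 12.01, 11.99 and 11.95, and the difference was 0.058. PSME1 and PSME2 form 1 complex, and under vehicle their differences were 0.20 and 0.058.

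PSME3, whose product forms the nuclear cap PA28γ and is not raised by interferon, stayed between 12.27 and 12.48 on all arrays. PSME4, the PA200 cap, was at 11.06, 11.25 and 11.04 in WT_DMSO and at 11.18, 11.22 and 11.38 in APP_DMSO. These overlapped, and the difference of 0.15 did not pass (limma, adjusted p = 0.30).

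The promoters of PSME1 and PSME2, and those of PSMB10 and PSMG4, hold a short sequence match that few other promoters hold, which is why they are shown; those of PSME3 and PSME4 do not. RefSeq windows from 250 bases before to 50 after the transcript start (build GRCh38.p14) covered 36 of the 42 members in 42 windows. GAAANNGAA, the core of the element that interferon regulatory factors bind, was searched on both strands and lay in 7 of 42 member windows (16.7%) and in 8.11% of all 35116 windows. Those 7 windows belonged to PSMA4, PSMB4, PSMB10, PSMC2, PSME1, PSME2 and PSMG4. Its variant GAAAGCGAA, looked at after the matches were seen, lay in the windows of PSMB10, PSME1, PSME2 and PSMG4, 9.52% of member windows beside 0.268% of all windows. The following 60-base stretches run 5′ to 3′ on the strand of the gene, with the match in capitals; in PSME1 it lies on the opposite strand.
PSME1: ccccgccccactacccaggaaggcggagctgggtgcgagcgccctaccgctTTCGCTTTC
PSME2: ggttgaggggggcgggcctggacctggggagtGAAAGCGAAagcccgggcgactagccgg
PSMB10: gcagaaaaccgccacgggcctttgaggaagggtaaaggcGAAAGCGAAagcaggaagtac
PSMG4: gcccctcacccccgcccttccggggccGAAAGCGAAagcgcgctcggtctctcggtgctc
PSMB4: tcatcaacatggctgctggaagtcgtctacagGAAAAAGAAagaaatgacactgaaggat
The PSME1 stretch is chr14:24136149-24136208 on the plus strand, and its match begins 7 bases into the transcript. The PSME2 stretch is chr14:24146611-24146670 on the minus strand, the PSMB10 stretch chr16:67936851-67936910 on the minus strand and the PSMG4 stretch chr6:3258887-3258946 on the plus strand. In these 3 genes the match starts 28, 21 and 33 bases before the transcript start. PSMB4, at chr1:151399473-151399532 on the plus strand, holds the core without the variant, and is shown beside them. The variant was chosen after values of these genes were seen, so that it supports nothing about them, and PSMG4 was called in no comparison. A match is a description of the letters, and binding was not measured.

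Other motifs were also searched. The core of the antioxidant response element, TGANNNNGC, which NRF1 and NRF2 use, lay in 59.5% of member windows and 41.8% of all windows, and the longer TGANTCAGC in 2.38% and 1.36%. TTCNNNGAA, the element that STAT proteins bind, lay in 16.7% and 7.66%, and the CCAAT box, bound by NF-Y, in 40.5% and 34.6%.

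PSMD5, a chaperone that helps to assemble the 19S base, was the other member called between genotypes. Under AG494 its WT arrays were at 10.01, 10.06 and 9.96 and its APP arrays at 10.29, 10.26 and 10.14. The groups were apart, and the difference of 0.22 (SE 0.067), 1.17-fold, passed limma's test (adjusted p = 0.044, and 0.0038 with the block). It did not pass in 5 of the 6 fits that left out 1 array of these groups: without any of the 3 WT_AG494 arrays it was 0.20 to 0.25, and without APP_AG494 replicate 1 or 2 it was 0.19 or 0.21. It also did not pass with the arrays of these 2 groups alone. Its other probe set gave 0.21, and neither passed when limma tested every probe set. Under vehicle WT arrays were at 9.97, 9.98 and 9.89 and APP arrays at 10.15, 10.08 and 10.00, a difference of 0.13 that did not pass. The other chaperones of the base, PSMD9 and PSMD10, spanned 0.13 and 0.15.

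PSMF1, the proteasome inhibitor PI31, was at 11.47, 11.50 and 11.53 in WT_DMSO and at 11.66, 11.64 and 11.73 in APP_DMSO. The groups were apart, and the difference of 0.18 (SE 0.063) passed with the block alone (limma, adjusted p = 0.092, and 0.036 with the block). Its 6 probe sets disagreed, with differences from -0.16 to 0.27, and none passed when limma tested every probe set. Under AG494, WT arrays at 11.55, 11.59 and 11.58 overlapped APP arrays at 11.64, 11.48 and 11.56, and the difference was -0.010.

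In WT cells the compounds left the proteasome genes near their vehicle levels. Under AG494 no member passed limma's test, with or without the block, and none had an unadjusted p under 0.05. Over all genes these shares were 0.254%, 1.97% and 8.13%. The members with the lowest p were PSMA4, PSMB10 (0.10) and PSMD6, a lid subunit (0.10). Under NOSCA the count was again 0 by all 3 rules, beside 0.0165% of all genes without the block, 0.419% with it and 6.91% at an unadjusted p under 0.05. The largest differences there were those of PSMA8 (0.18, near the floor) and PSMD6 (0.15), and PSME2 was lowest (-0.085). All intervals stayed within 1.5-fold under both compounds. The widest bound among the 40 bright members was 0.37 on the log2 scale, or 1.30-fold under AG494 and 1.29-fold under NOSCA, in PSMG4.

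Under PALBO in WT cells no member passed limma's test, beside 6.98% of all genes. With the block 1 passed, beside 15.1%, and 2 had an unadjusted p under 0.05, beside 18.2% of all genes. The member that passed with the block was PSMB5, the chymotrypsin-like catalytic subunit. It was at 12.15, 11.98 and 12.04 under vehicle and at 12.27, 12.19 and 12.19 under PALBO. The groups were apart by a small margin, beside 21.2% of all genes with groups apart. The difference was 0.16 (SE 0.064), or 1.12-fold (limma, adjusted p = 0.17, and 0.040 with the block). All 5 of its probe sets were above 0, from 0.090 to 0.22. PSMB6 and PSMB7, which sit in the same ring in equal number, spanned 0.065 and 0.047 over all groups. PSMF1 was 0.15 higher in the mean and passed neither fit (adjusted p = 0.21, and 0.095 with the block), while 1 of its 6 probe sets, with a mean of 8.98, passed when limma tested every probe set (0.32, adjusted p = 0.046, beside 5.95% called). PSMA4 was at -0.12 and PSMB11 at -0.13, and neither passed.

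In APP cells AG494 raised PSMB10, the β2i subunit that replaces PSMB7 in the immunoproteasome. It was 1 of 42 members called, beside 4.75% of all genes. Its vehicle arrays were at 10.41, 10.45 and 10.49 and its AG494 arrays at 10.66, 10.73 and 10.80, with no overlap, as in 20% of all genes. The rise was 0.28 (SE 0.073), or 1.21-fold (limma, adjusted p = 0.032, and 0.0065 with the block). Within the 3 runs it was 0.25, 0.28 and 0.31, and its 3 probe sets gave 0.28 to 0.30, all called when every probe set was tested, beside 3.82%. The call was lost without any 1 of the 3 APP_DMSO arrays (0.26 to 0.30), and without APP_AG494 replicate 2 (0.28) or replicate 3 (0.24). It also did not pass with the arrays of these 2 groups alone; adjusted p-values over the alternatives ran from 0.0065 to 0.14.

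With the block, 2 members passed under AG494 in APP cells, beside 11.8% of all genes, and 2 had an unadjusted p under 0.05, beside 15.8%. The added member was PSMD5, at 0.15 (adjusted p = 0.050 with the block, 0.26 without). PSMG4, a chaperone of 20S assembly, was at 10.65, 10.68 and 10.81 under vehicle and at 10.78, 10.92 and 11.20 under AG494. The lowest AG494 array lay below the highest vehicle array, and the difference of 0.25 (SE 0.13) did not pass (limma, adjusted p = 0.38, and 0.053 with the block). The lowest members were PSMF1 (-0.12) and PSMG3 (-0.076), and neither passed. The median over the members was 0.003 as deposited and 0.049 with array medians set equal, beside -0.006 and 0.040 over all genes.

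NOSCA in APP cells left 0 members called by limma, beside 0% of all genes, and 0 with the block, beside 0.0276%. The 1 member with an unadjusted p under 0.05, beside 5.29% of all genes, was PSMB10, at 10.66, 10.59 and 10.64 under NOSCA. All 3 lay above the vehicle arrays, beside 10.8% of all genes with groups apart. The difference was 0.18 (limma, adjusted p = 0.87). PSME4 had the lowest value, -0.13, which did not pass.

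**Figure D4:**
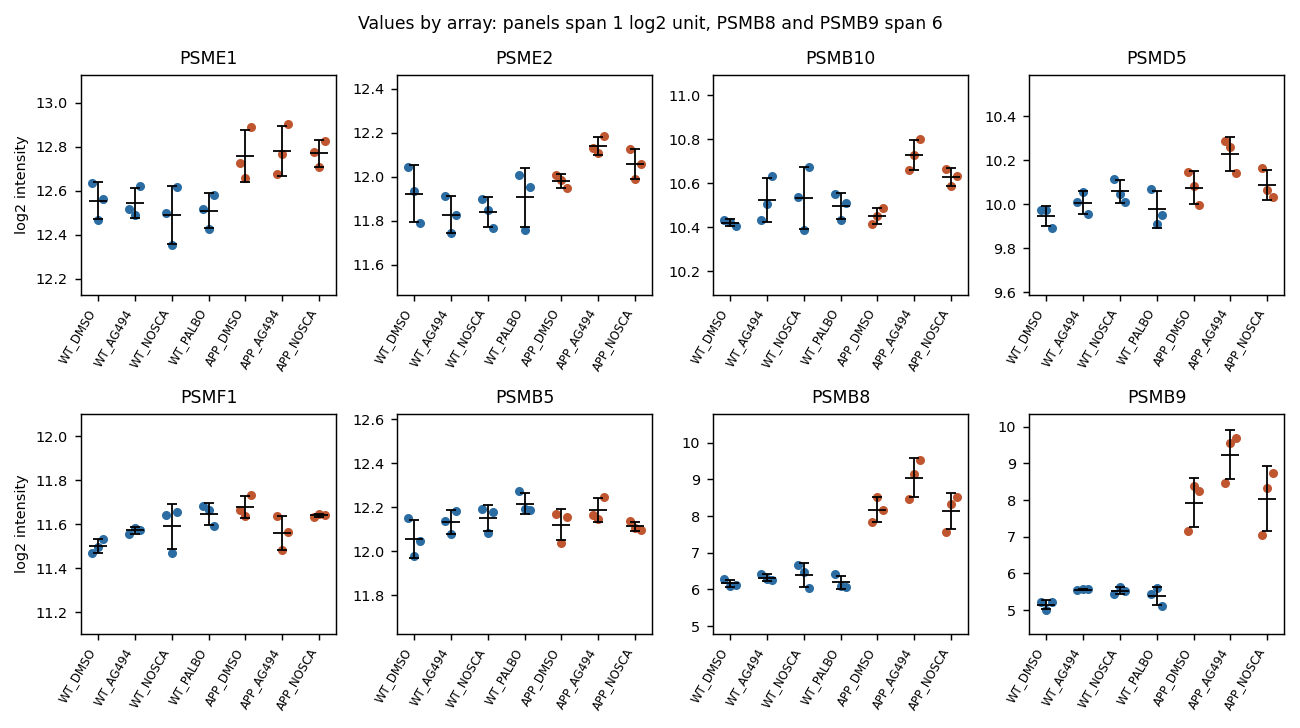
Points are single arrays (blue WT, red APP), with the group mean and SD (n = 3) as bars; the y axis is log2 intensity, and the panels of the 6 proteasome genes span 1 log2 unit while those of PSMB8 and PSMB9 span 6. All APP arrays of PSME1 lie above all WT arrays, PSMB10 is highest in APP_AG494, and PSMB8 and PSMB9 are far higher in APP than in WT cells.

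Whether AG494 acted differently in APP and WT cells was tested as an interaction. No member passed limma's test with or without the block, beside 0.0386% and 1.26% of all genes. At an unadjusted p under 0.05 there were 2 members, beside 7.53%: PSME2 at 0.26 (SE 0.11, adjusted p = 0.61) and PSMF1 at -0.19 (SE 0.089, adjusted p = 0.66). For PSMB10 the difference between its response in APP cells (0.28) and in WT cells (0.10) was 0.17, with a 95% interval from -0.042 to 0.39. For NOSCA the interaction gave 0 members by all 3 rules, beside 0% of all genes by limma's test, 0.0165% with the block and 4.94% at an unadjusted p under 0.05.

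The 2 inducible subunits outside the set moved far more. PSMB8 (β5i) was at 6.28, 6.09 and 6.12 in WT_DMSO and at 7.83, 8.51 and 8.16 in APP_DMSO. Its difference was 2.00 (SE 0.25, limma, adjusted p = 2e-05), and that of PSMB9 (β1i) 2.78 (SE 0.36, adjusted p = 3.7e-05). AG494 raised both further in APP cells, by 0.88 (adjusted p = 0.048) and 1.31 (adjusted p = 0.045), and in WT cells neither passed (0.16 and 0.41). Both calls in APP cells lay near the threshold. When limma tested every probe set there, 1 of 3 of PSMB8 and 2 of 3 of PSMB9 passed, beside 3.82% of all probe sets. The brightest of PSMB8 did not pass (adjusted p = 0.054). The dimmest of each gene gave 0.165 and -0.105, and neither passed. PSMB10, the third subunit that is built into the same immunoproteasome, differed by 0.029 between APP_DMSO and WT_DMSO, with a 95% interval from -0.12 to 0.18. The standard subunits that these replace, PSMB5, PSMB6 and PSMB7, differed by 0.064, 0.011 and 0.030 in that comparison by their brightest probe sets, none past the test; the 2 dim probe sets of PSMB7 were lower, as given above. An RNA level does not show which subunits are built into particles. CD68 was the 1 immune marker of 7 that passed under AG494 in APP cells (0.52), with PTPRC between 4.79 and 5.18 on all arrays; their part in these results was not tested.

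**Figure D5:**
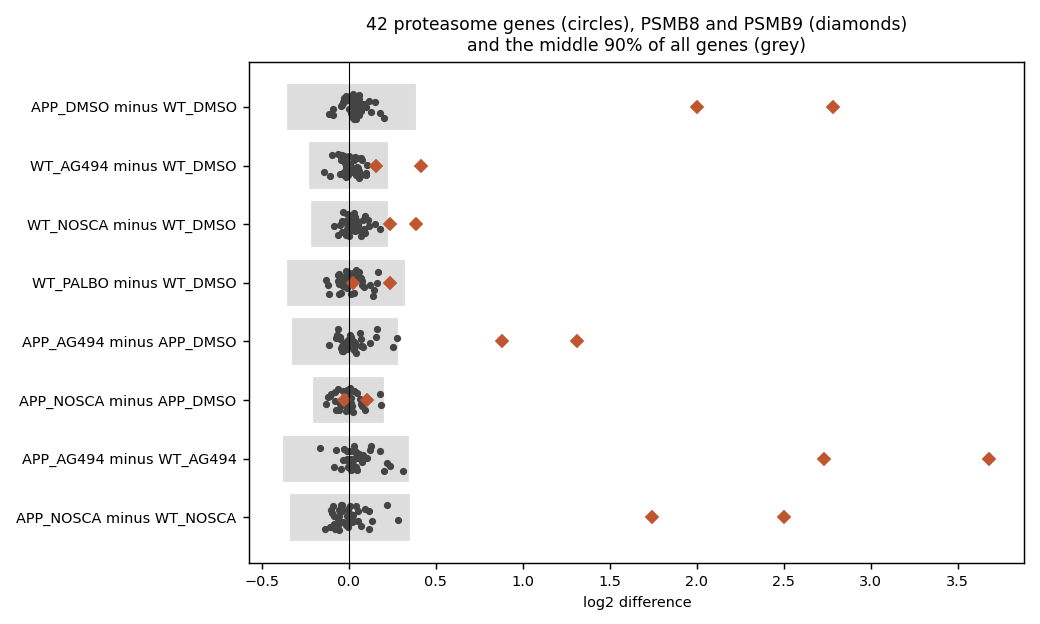
Each row is a comparison and the x axis the log2 difference; dark circles are the 42 proteasome genes, red diamonds PSMB8 and PSMB9, and the grey bar holds the middle 90% of all genes. Nearly all circles lie inside the grey bars, and both diamonds lie outside them in the 3 genotype comparisons, for AG494 in APP cells and for NOSCA in WT cells (0.24 and 0.39), as does PSMB9 for AG494 in WT cells (0.41).

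Among the chaperones that build the 20S core, PSMG3 and PSMG4 had the largest SD between arrays of a group of the 42 members, 0.22 and 0.17, beside 0.12 for PSMG1 and 0.096 for PSMG2. The arrays of PSMG3 in the third run of title numbers were the highest in every group: 12.10, 12.09, 12.23, 12.05, 12.12, 11.95 and 11.87 in the order of the groups in the plot of single arrays. The other arrays ranged from 11.53 to 11.94. PSMG3 pairs with PSMG4, and PSMG1 with PSMG2; the latter pair spanned 0.11 and 0.15. POMP, the maturation factor that acts after them, differed by 0.013 between APP_DMSO and WT_DMSO.

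Regulators and partners of the proteasome were taken as further lists. Of 9 measured transcription factors of proteasome genes and their processing enzymes, NFE2L1 (NRF1) differed by 0.020 between APP_DMSO and WT_DMSO and by 0.038 under AG494 in APP cells, and passed in neither. NFYA and NFYB, subunits of the CCAAT-binding NF-Y, fell under AG494 in APP cells, by 0.48 (adjusted p = 0.0089) and 0.41 (adjusted p = 0.011) on the log2 scale. NFYA was also lower in APP than in WT cells under AG494, by -0.68 (adjusted p = 0.00018). NFE2L2 (NRF2) fell under PALBO by 0.29 (adjusted p = 0.010). The gene named NRF1, which codes for nuclear respiratory factor 1 and not for the product of NFE2L1, was at -0.41 under PALBO and passed with the block alone (adjusted p = 0.056, and 0.0047 with the block). By the brightest probe set, none of the 42 members was lower at an adjusted p under 0.05 in these 3 comparisons. This held with and without the block, and also at an unadjusted p under 0.05. The dim probe sets of PSMB7 were lower in APP than in WT cells under AG494. Whether the levels of these factors bear on the members was not tested.

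Of 11 measured other subunits, assembly and bound factors, none passed limma's test in any of the 8 comparisons of 2 groups. At an unadjusted p under 0.05 there were up to 2 in a comparison. With the block PAAF1 (0.21) and the deubiquitinase USP14 (0.25) passed higher and UCHL5, another deubiquitinase, passed lower (-0.25) between APP_DMSO and WT_DMSO. Of 11 measured shuttles and segregase genes, UBQLN4, which carries ubiquitinated proteins to the proteasome, was higher in APP than in WT cells under vehicle (0.28, adjusted p = 0.028) and under NOSCA (0.29, adjusted p = 0.029). Of 8 measured aggresome and stress genes, SQSTM1 (p62), an autophagy receptor for ubiquitinated cargo, rose under AG494 in APP cells by 0.39 (adjusted p = 0.012). It was also 0.38 higher in APP than in WT cells under AG494 (adjusted p = 0.0084). Of 3 measured ubiquitin genes and activating enzymes, none passed in the 8 comparisons, and none had an unadjusted p under 0.05. The immunoproteasome list had 4 measured genes, the regulators IRF1 and NLRC5 and the peptide transporter genes TAP1 and TAP2. All 4 were higher in APP than in WT cells under vehicle, by 1.04, 1.59, 3.11 and 0.83. AG494 raised all 4 further in APP cells, by 0.90, 1.55, 1.73 and 0.80. In WT cells AG494 raised IRF1 alone of the 4 past the test, by 0.64 (limma, adjusted p = 0.016), with PSMB10 at 0.10, PSME1 at -0.011 and PSME2 at -0.096 in that comparison.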

How the data were processed

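Total RNA (25 ng a sample) of 21 cultures was amplified and hybridised to PrimeView arrays. The authors deposited log2 intensities, with RMA and affy named in the submitters' processing notes; versions are not given in the sources used here. Of 49372 probe sets, 79 were controls; 44988 had 1 symbol in the platform's annotation (44961 matched RefSeq by Entrez ID), 1832 had several and 2473 were not listed. Of the chosen probe sets, 7 carry the suffix _x_at and 6 _s_at, which mark probes that can match other transcripts.

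All 18132 genes and 21 arrays entered 1 fit (limma 3.58.1, R 4.3.3) with 1 coefficient per group, 14 residual degrees of freedom and 10 contrasts. Tests were two-sided, with Benjamini-Hochberg adjustment over all genes of a contrast; a gene was called at an adjusted p under 0.05. The fit was tried on simulated data in which arrays varied independently. The planted changes were larger than any difference of a member by its brightest probe set, so that the trial does not bear on those. The series states 3 independent experiments and the labels do not tie arrays to them. Title numbers fall into 3 runs of 10, each with 1 array per group. Deviations from group means correlated at 0.226 to 0.685 in 63 pairs of the same run and at -0.529 to 0.0889 in 126 pairs of different runs and groups. The run was therefore taken as pairing the arrays and fitted as a replicate block beside the fit without it.

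Named genes were all called members, the extremes of each role group, called partners, PSMB8 and PSMB9. The 2 largest rises and falls of a comparison, and the 3 lowest p where none passed, were named in some comparisons only. Other genes, chosen after their values were seen, are members of the same complex, motif carriers, PSMD3, PSMG3, NFE2L1, POMP, CD68, NRF1, the other marker genes named, the probe sets of PSMB7 and some partners that passed with the block alone. Members and lists were chosen with earlier results of these data known. Alternatives were other centring, quantile normalisation, a filter on dim genes, averaged probe sets, the compared groups alone, the block and leaving out each array. All 44988 probe sets with 1 symbol were also fitted, each on its own, which was added after values were seen.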

Additional observations from a re-analysis of the deposited data

How the results depend on the processing

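No called value changed sign, but the member medians, which are near 0 and have no test, turned sign in 5 comparisons with array medians set equal. In all, 339 values kept their direction and side of the threshold or stayed within the spread, 37 moved, 15 lost their call and 13 gained one, over 31 results. With the replicate block, members called went from 0 to 2 between APP_DMSO and WT_DMSO, from 0 to 1 for PALBO in WT cells, from 1 to 2 for AG494 in APP cells, from 2 to 4 for APP against WT cells under AG494 and from 0 to 2 under NOSCA; it changed no other count. When the probe sets of a gene were averaged, the counts were 2 under vehicle, 4 under AG494 and 2 under NOSCA between the genotypes, each including PSMB7, lower in APP cells, whose brightest probe set showed no such difference. Every probe set was also tested on its own, an alternative chosen after seeing the data. Members with at least 1 probe set called numbered 2 between the genotypes under vehicle, 3 under AG494, 2 under NOSCA and 1 for PALBO in WT cells. Of all probe sets, 8.13%, 7.76%, 6.08% and 5.95% were called in these comparisons. These are shares of probe sets and not of genes, and 30 of the members had several probe sets. With the arrays of the compared groups alone the counts were 0 for AG494 in APP cells and 0 between the genotypes under AG494, where fewer arrays set the spread. With the 12088 brighter genes alone, 1 passed between the genotypes under NOSCA. Leaving out 1 array gave 0 to 1 calls for AG494 in APP cells, for APP against WT cells under AG494 (0 to 1) and under NOSCA (0 to 1). The shares of all genes called are not given here for averaged probe sets, the compared groups alone, the brighter genes or left-out arrays. Those member counts therefore have no background beside them. With array medians set equal, the member median was -0.026 between the genotypes under vehicle, -0.020 for AG494 and -0.011 for PALBO in WT cells, 0.049 for AG494 and 0.028 for NOSCA in APP cells, 0.065 for the AG494 interaction and -0.002 for the NOSCA interaction, beside 0.023 for the SD between arrays. Leaving out 1 array gave member medians from -0.020 to 0.029 for PALBO, from -0.012 to 0.027 for AG494 in APP cells and from -0.023 to 0.023 for the AG494 interaction. The cause of these changes was not tested. With 3 arrays a group, the 95% intervals of 31 to 36 of 42 members stayed within 1.2-fold in the 8 comparisons of 2 groups, and smaller differences could not be settled.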

Other observations

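Probe sets of 1 gene did not always move together. Among the members of the set, the widest disagreement described here was that of PSMB7. Its 5 probe sets ran from -1.02 to 0.039 between APP_DMSO and WT_DMSO and from -0.90 to 0.040 between the genotypes under AG494. Outside the set, the probe sets of PSMB8 and PSMB9 lay further apart. Between APP_DMSO and WT_DMSO they ran from -0.013 to 2.00 for PSMB8 and from 0.169 to 2.78 for PSMB9. Between the genotypes under AG494 they ran from 0.173 to 2.73 and from 0.035 to 3.68. For PSMF1 the 6 probe sets ran from -0.16 to 0.27 between APP_DMSO and WT_DMSO, and from -0.19 to 0.19 for AG494 in WT cells. For PSMG4 the 6 probe sets ran from -0.19 to 0.18 between the genotypes under AG494. By contrast the 3 probe sets of PSMB10 lay between 0.28 and 0.30 for AG494 in APP cells, and the 3 of PSME1 between 0.25 and 0.31 for APP against WT cells under NOSCA.

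A window of PSMB8 held TTCGCTTTC, the same letters as the PSME1 match, at the transcript start. A further window of PSMB8 held no match to the core GAAANNGAA, and neither did the window of PSMB9. Both genes were far higher in APP cells, with group means in WT_DMSO and APP_DMSO of 6.16 and 8.17 for PSMB8 and of 5.15 and 7.93 for PSMB9.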
